A study of Sus scrofa with 6 samples.

Results

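The thrombospondins are a family of 5 secreted matrix proteins, COMP (also called thrombospondin 5), THBS1, THBS2, THBS3 and THBS4, and they were followed here in the backfat of castrated and intact male pigs. All probe sets of the array whose only gene symbol is one of these names were taken, which gave 11 of the 23999 probe sets that are not controls. These cover 4 of the 5 genes, with 2 probe sets for COMP, 5 for THBS1, 1 for THBS2 and 3 for THBS3. THBS4 was not analysed here. The family was chosen by the signals of COMP and THBS2, which had passed the threshold between barrows and boars, so its values in that comparison are a description and lend no support to a difference.

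The barrows were castrated surgically under anaesthesia at 7 days of age, and the boars were their full brothers with both testes left in place. Both came from Pietrain sires and Landrace dams, in 15 pairs of brothers or 30 animals, were weaned at 30 days, had free access to feed and were killed at 175 days. RNA of the middle backfat layer at the 6th rib from 5 animals of 1 kind was pooled for each array, which gave 3 barrow pools and 3 boar pools. A replicate is therefore a pool, and every SD or interval given here refers to pools and not to single pigs.

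Thrombospondins are calcium-binding glycoproteins that cells secrete into the matrix, where they link collagens, proteoglycans, proteases and growth factors to receptors on the cell surface. THBS1 and THBS2 assemble as trimers and carry the type 1 repeats through which they bind CD36 and restrain the growth of blood vessels. THBS3, THBS4 and COMP assemble as pentamers and lack those repeats. COMP is best known from cartilage and tendon, where it helps collagen fibrils to form, and THBS1 is also known as an activator of latent TGF-beta and as a protein stored in platelets.

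Every value below is a MAS5 signal, the Affymetrix summary of a probe set on a linear scale, and every difference is barrow minus boar on the scale of log2(signal + 16). With limma, 14399 probe sets were tested, the upper 60% when ordered by mean log2 signal, at a Benjamini-Hochberg adjusted p under 0.05. Its intervals draw their error partly from the variances of the other tested probe sets, and not only from a probe set's own spread between pools. The lowest mean tested was 6.76 on the log2 scale, or a signal of about 92.7. Across those probe sets the arrays correlated at 0.978 to 0.988 within groups and at 0.975 to 0.983 between groups, and median signals were 162 to 173. The tissue carried its defining fat cell markers, with ADIPOQ (adiponectin) at 18955 to 23039 in barrow pools and 21686 to 23053 in boar pools, and FABP4, a fatty acid carrier of fat cells, at 15578 to 18764 and 17794 to 19692 in the same order. Signals of different probe sets are not set against each other, because each has its own probe affinity.

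COMP and THBS2 were higher in barrow fat, and no tested probe set of THBS1 or THBS3 was called. The difference was 1.33 for COMP and 0.50 for THBS2, against -0.02 to 0.20 for the 3 tested probe sets of THBS1 and 0.10 and 0.18 for the 2 of THBS3. Whether members differ from each other in this was not tested, and the interval of THBS3 in Ssc.11559.2.A1_at, given below, includes the difference of THBS2. Of the 11 probe sets 7 were tested, and 2 of these 7, the ones of COMP and THBS2, were called higher and 0 lower, where 1.16% of all 14399 probe sets were called in either direction and 0.701% higher. That contrast was used to choose the family, so nothing is read from the count. In 3 of the 7 all barrow signals lay above all boar signals, as in 8.38% of all tested probe sets, and 18.1% of those did not overlap in either direction.

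**Figure D1:**
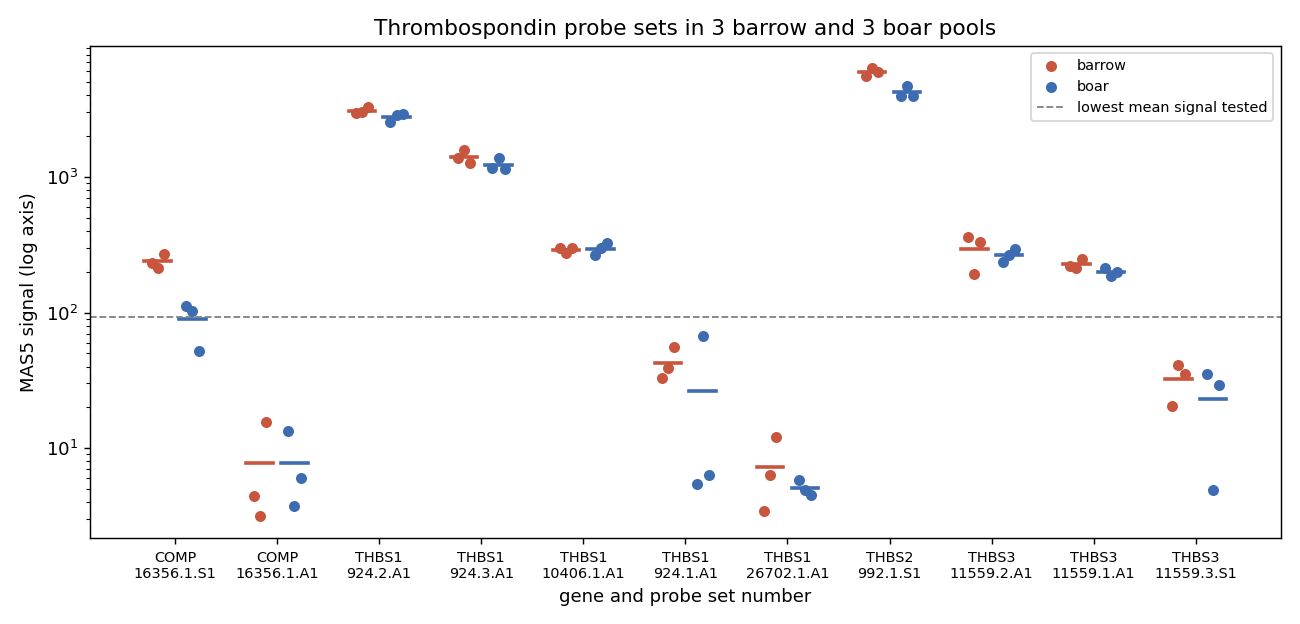
MAS5 signal on a log axis for each of the 11 thrombospondin probe sets, with 1 point per pool, barrow pools (red) left of boar pools (blue) and a bar at each group's mean. The dashed line marks a signal of 92.7, the lowest mean tested; the boar signals of COMP lie around it, and 4 probe sets lie below it in all pools.

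COMP is represented by the probe set Ssc.16356.1.S1_at. Its signal was 233.5, 214.4 and 269.6 in barrow pools 1 to 3, against 111.8, 103.1 and 52.3 in boar pools 1 to 3. The lowest barrow pool was thus above the highest boar pool, and boar pool 3 lay apart from the other boar pools on the low side. The mean was 239 ± 28.0 in barrows and 89.0 ± 32.1 in boars (SD, n = 3 each), a 2.51-fold difference on the log2(signal + 16) scale (limma 95% interval 1.74 to 3.62). The interval takes no account of the choice of COMP for this difference.

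The boar signals of COMP are not shown to stand above background. Boar pools 1 and 2, at 111.8 and 103.1, lay above the lowest mean tested, a signal of about 92.7. Boar pool 3, at 52.3, lay below it. The boar mean log2 signal of 6.66 was below the lowest mean tested. Taken as means, only the barrow signals therefore carried COMP past the filter, and it had to differ to be tested at all. The size of its difference moved with the constant added before the logarithm, to 1.48 with 1 and to 1.01 with 64. The coefficient of variation between pools was 11.7% in barrows and 36.1% in boars. The other COMP probe set, Ssc.16356.1.A1_at, is annotated with the same source sequence and was dim everywhere, at 3.16 to 15.6 in barrow pools and 3.77 to 13.4 in boar pools, and it was not tested.

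THBS2, known from mice to restrain vessel growth and to carry matrix proteases to uptake by cells, is represented by the probe set Ssc.992.1.S1_at alone. Its signal was 5579, 6332 and 5942 in barrow pools 1 to 3, against 3968, 4709.6 and 3928 in boar pools 1 to 3. All barrow pools were above all boar pools, with the nearest pools at 5579 in barrows and 4709.6 in boars. The mean was 5951 ± 377 in barrows and 4202 ± 440.3 in boars (SD, n = 3 each), a 1.42-fold difference (limma 95% interval 1.24 to 1.62, with the same reservation about its choice). These signals lie far above the lowest mean tested in both groups, and the difference stayed at 0.51 and 0.50 when the added constant was 1 and 64.

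THBS1, the platelet and wound-healing member, was measured by 5 probe sets, of which 3 were tested. In Ssc.924.2.A1_at its signal was 2971, 2994 and 3306 in barrow pools 1 to 3, against 2539, 2882 and 2928 in boar pools 1 to 3. The groups did not overlap there, but the nearest pools were only 2971 in barrows and 2928 in boars, and the difference was 0.15 (limma 95% interval -0.03 to 0.34). In Ssc.924.3.A1_at it was 1384, 1588 and 1276 in barrow pools, against 1161, 1379 and 1144 in boar pools, with overlap and a difference of 0.20 (95% interval -0.04 to 0.44).

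The third tested probe set of THBS1, Ssc.10406.1.A1_at, had 298, 275 and 301 in barrow pools and 264, 299 and 327 in boar pools. The highest and the lowest pool were both boar pools, and the difference was -0.02 (95% interval -0.31 to 0.27), turning to 0.05 without boar replicate 3. The intervals of all 3 include 0. Below the filter, Ssc.924.1.A1_at had 33.1 to 55.4 in barrow pools and 5.47 to 66.9 in boar pools, and Ssc.26702.1.A1_at had 3.42 to 12.0 and 4.52 to 5.87 in the same order. Both of these stayed untested.

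THBS3, a pentameric member close to COMP and THBS4, was tested in 2 of its 3 probe sets. In Ssc.11559.2.A1_at its signal was 361, 194 and 329 in barrow pools 1 to 3, against 235, 268 and 294 in boar pools 1 to 3. Barrow pool 2 was the lowest of all pools and barrow pool 1 the highest, so the spread was wide in barrows, at 294 ± 88.5 against 266 ± 29.4 in boars (SD, n = 3 each), and the difference was 0.10 (limma 95% interval -0.36 to 0.56). Without barrow replicate 1 it turned to -0.06, and without barrow replicate 2 it was 0.36. In Ssc.11559.1.A1_at the signal was 221, 213 and 250.1 in barrow pools and 213, 186 and 199 in boar pools, with barrow pool 2 just under boar pool 1 and a difference of 0.18 (95% interval -0.13 to 0.49). The third probe set, Ssc.11559.3.S1_at, lay below the filter with 20.6 to 41.0 in barrow pools and 4.95 to 35.2 in boar pools.

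**Figure D2:**
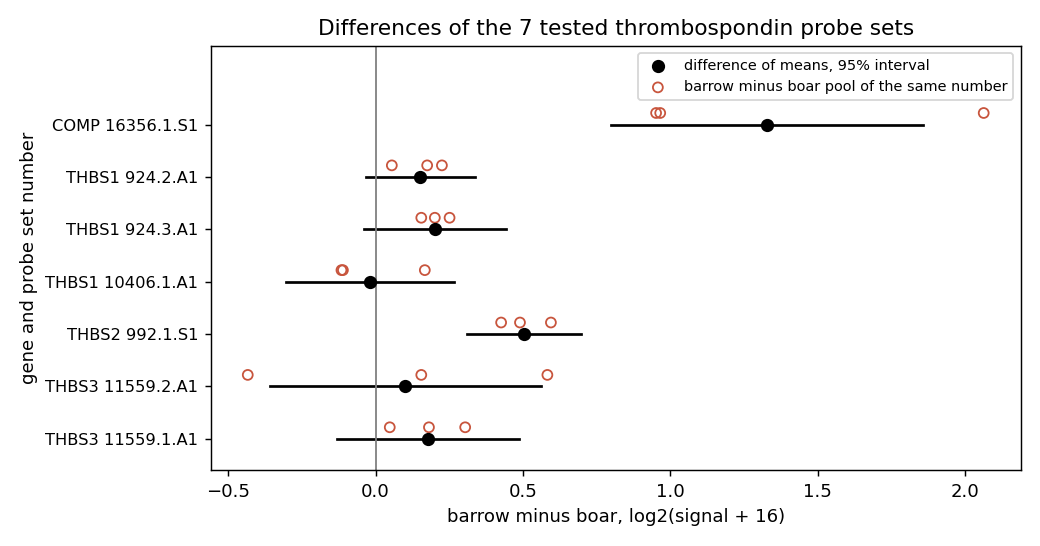
Barrow minus boar difference on the log2(signal + 16) scale for the 7 tested thrombospondin probe sets, as the difference of means with its limma 95% interval (black) and as the difference between pools of the same number (open circles). COMP is at 1.33 and THBS2 at 0.50, and the 5 probe sets of THBS1 and THBS3 have intervals that include 0.

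The pools carry numbers 1 to 3 in both groups, and pools of the same number were taken to be paired for the differences that follow. The main fit, which gave the limma intervals above, held no pairing. For THBS2 the 3 differences between same-numbered pools were close together, at 0.49, 0.43 and 0.60. For COMP they were 0.97, 0.95 and 2.06, the last from boar pool 3 with its low signal. THBS3 in Ssc.11559.2.A1_at had 0.58, -0.43 and 0.16, which go both ways, and in Ssc.11559.1.A1_at 0.05, 0.18 and 0.30, all above 0. THBS1 in Ssc.924.2.A1_at had 0.23, 0.06 and 0.18, and in Ssc.924.3.A1_at 0.25, 0.20 and 0.16, all above 0, but in Ssc.10406.1.A1_at 0.17, -0.12 and -0.11. With the replicate number as a block the calls of all 7 stood as without it, with 2 called, where 2.35% of all probe sets were.

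COMP and THBS2 differed in the order of the pools within each group. Among barrows COMP was highest in pool 3 and lowest in pool 2, whereas THBS2 was highest in pool 2 and lowest in pool 1. Among boars COMP was highest in pool 1 and THBS2 in pool 2, and both were lowest in pool 3. With 3 pools a group these orders are a description only.

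The calls that chose COMP and THBS2 rested on most of the pools. Both were lost when any of 4 pools was left out, with a difference for COMP of 1.34 without barrow replicate 1, 1.24 without barrow replicate 3, 1.49 without boar replicate 1 and 1.04 without boar replicate 3, and for THBS2 of 0.55, 0.50, 0.47 and 0.46 in the same order. They were also lost without a filter and without limma's intensity trend, where the differences stayed at 1.33 and 0.50. Calls over all probe sets fell too, from 167 to 52 and 65 without barrow replicates 1 and 3. Without boar replicates 1 and 3 there were 27 and 31.

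**Figure D3:**
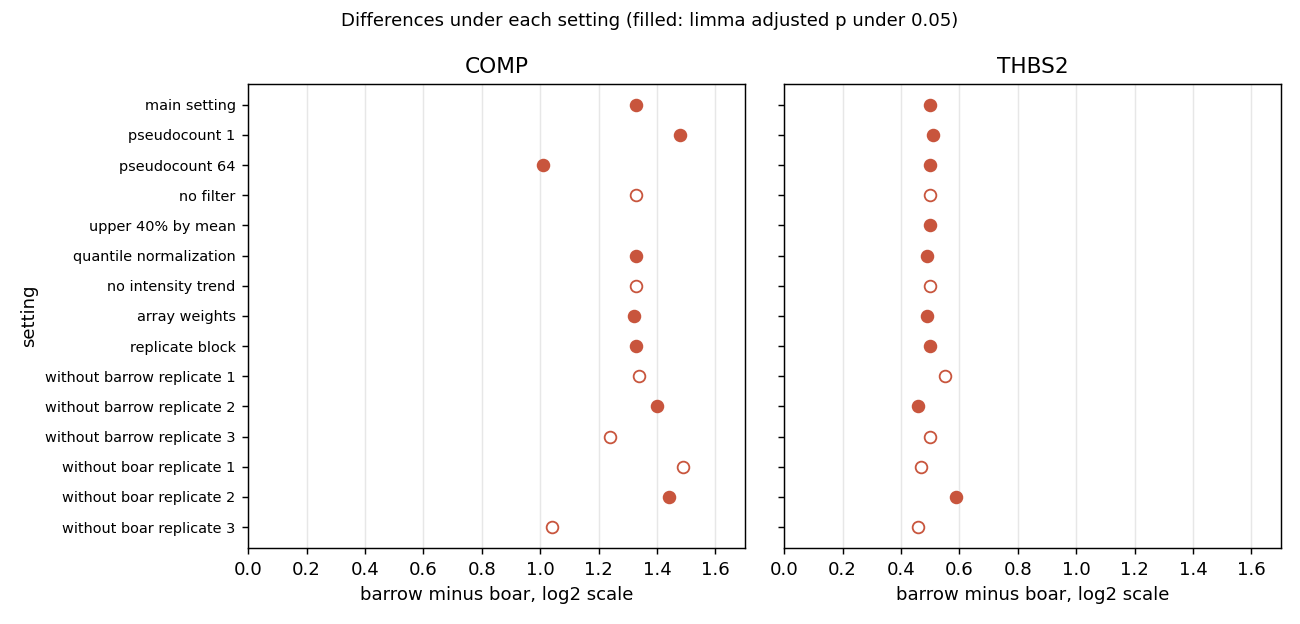
Barrow minus boar difference of COMP (left) and THBS2 (right) on the log2 scale in the main setting and in each alternative, filled where the limma adjusted p was under 0.05. All differences lie above 0, from 1.01 to 1.49 for COMP and from 0.46 to 0.59 for THBS2; COMP has no point for the upper 40% by mean, where it was too dim to be tested.

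Cells that make thrombospondins outside fat cells were followed through marker lists, in bulk RNA in which more cells of a type and more RNA per cell cannot be told apart. For the counts on these and the later lists, of all 5356 genes tested 48.5% had a difference above 0, 1.51% were called in either direction and 13.7% had an unadjusted p under 0.05 (limma). Barrow pool 2 stood apart from the other pools, with the lowest limma array weight, 0.43 where the others had 0.85 to 1.61. Without it 290 of all probe sets were called, where 167 were with it. Of the 19 symbols of the tendon and cartilage list 6 had a probe set and 2 were tested. The summed signal of the 6 was 2264 to 3012 in barrow pools and 2142 to 2352 in boar pools, and most of it was CILP, a matrix protein of cartilage, at 2427, 1912 and 2651 in barrows and 1921, 1779 and 2007 in boars (difference 0.28, limma adjusted p = 0.36). Without barrow replicate 2 the CILP difference was 0.41 (adjusted p = 0.037), and over all alternatives its limma adjusted p reached 0.66. The cartilage collagen COL2A1 had a difference of -0.23 (adjusted p = 0.65).

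The other 4 genes of the list, SOX9, COL11A1, ACAN and HAPLN1, lay below the filter. SOX9, the master transcription factor of cartilage, was at 3.04 to 32.4 in barrow pools and 1.16 to 3.96 in boar pools, and HAPLN1, which links hyaluronan to proteoglycan, at 2.08 to 23.1 and 3.53 to 27.8 in the same order. COL11A1, a cartilage collagen chain, was at 13.7 to 90.2 in barrow pools and 47.5 to 54.3 in boar pools. ACAN, the large cartilage proteoglycan and a binding partner of COMP, had 78.0, 78.8 and 82.2 in barrow pools against 36.9, 56.5 and 40.9 in boar pools. ACAN signals thus did not overlap between the groups, and neither did those of 18.1% of all tested probe sets, in either direction. ACAN itself was too dim to be tested and was named after its values were seen. The part of such cells in the COMP values was not tested.

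Most markers of skeletal muscle and platelets lay below the filter. All 11 muscle markers with a probe set did so, with a sum of 213 to 254 in barrow pools and 230 to 276 in boar pools. The muscle enzyme CKM was at 59.3 to 92.9 in barrows and 82.4 to 83.7 in boars. Of the platelet list 3 symbols had a probe set, with a sum of 267 to 388 in barrows and 277 to 435 in boars, and the only one tested, GP9, had a difference of -0.07 (limma adjusted p = 0.94) that turned to 0.08 without barrow replicate 3. PPBP, a chemokine stored in platelets, was at 2.24 to 9.37 in barrows and 1.29 to 27.4 in boars.

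Fibroblast markers, from cells that make both THBS2 and collagen, had a summed signal over 9 genes that overlapped between the groups. It was 32283 to 43340 in barrow pools and 37416 to 43514 in boar pools, and the median difference of the genes was -0.03. The lowest sum was that of barrow pool 2, and the other barrow pools had 40512 and 43340. None of the 9 was called, where 1.51% of all genes were, and 3 had an unadjusted p under 0.05, where 13.7% of all genes had (limma). DPT, a small collagen-binding matrix protein, was at 4285, 4324 and 4665 in barrows against 5751, 5389 and 5446 in boars (difference -0.32, adjusted p = 0.060, or 0.041 once the replicate block was added). LOX, the enzyme that cross-links collagen, had -0.37 (adjusted p = 0.15, or 0.035 under the block). Over all alternatives the limma adjusted p reached 0.31 for DPT and 0.45 for LOX. The fibroblast protease FAP had 0.25 (adjusted p = 0.12). Signals of DPT and LOX, lower in barrows, and of FAP, higher in barrows, did not overlap between the groups. Those of the other genes on the list did. Of all tested probe sets 18.1% did not overlap in either direction.

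Of the vessel and macrophage markers 0 of 7 and 1 of 7 had a difference above 0, with medians of -0.17 and -0.23, where 48.5% of all genes tested lay above 0 with a median of -0.01. The 7 endothelial genes summed to 13504 to 13879 in barrow pools and 15022 to 15746 in boar pools, which did not overlap. The largest part of this sum was PECAM1, with a mean of 6903 in barrows and 7605 in boars. CDH5 had -0.001, VWF -0.05 and KDR -0.41, each with overlap between the groups, and TIE1 had -0.17. Signals of PECAM1, TEK, TIE1 and CLDN5 did not overlap between the groups. Neither did those of 18.1% of all tested probe sets, in either direction, a share for single probe sets and not for sums. TEK, the angiopoietin receptor, fell by 0.47 (limma adjusted p = 0.047), the only one of the 7 called where 1.51% of all genes were, with -0.20 in its other probe set. CLDN5, a junction protein, had -0.45 (adjusted p = 0.17, or 0.022 without barrow replicate 2), and PECAM1, an adhesion protein of endothelium, had -0.14 (adjusted p = 0.41). Over all alternatives the limma adjusted p of CLDN5 reached 0.44. The TEK call was lost in 6 of 14 alternatives, with -0.41 without barrow replicate 1, -0.50 without barrow replicate 3, -0.45 without boar replicate 1 and -0.44 without boar replicate 3 among them. The 7 macrophage genes summed to 7759 to 9104 in barrows and 8155 to 10503 in boars, and 0 of them were called, with 3 at an unadjusted p under 0.05 where 13.7% of all genes had one (limma). C1QA, a complement chain made by macrophages, had -0.44 (adjusted p = 0.13, or 0.035 under the replicate block), the signalling adaptor TYROBP had -0.39 (adjusted p = 0.14) and AIF1, an actin-binding protein of macrophages, had -0.33 (adjusted p = 0.27). Over all alternatives the limma adjusted p of C1QA reached 0.48. The rest of the list had smaller differences, with C1QC at -0.23, CD14 at -0.17, MRC1 at -0.02 and CD163 at 0.15. The other CD163 probe set had -0.70. The part of these cells in the THBS2 and THBS1 values was not tested.

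Smooth muscle and pericyte genes summed to 13956 to 18342 in barrows and 17321 to 19682 in boars over 6 genes, the lowest in barrow pool 2 and the other barrow pools at 18105 and 18342. ACTA2, the actin of contractile cells, had -0.32 (limma adjusted p = 0.32), the intermediate filament DES 0.46 (adjusted p = 0.52) and the receptor PDGFRB -0.17 (adjusted p = 0.57). The 7 fat cell genes summed to 71687 to 78790 in barrows and 75128 to 79749 in boars. Of these LEP, the hormone leptin, was called and rose by 0.58 (adjusted p = 0.021), with 0.45 in its other probe set. Its call was lost in 4 of 14 alternatives, with 0.58 without barrow replicate 1, 0.52 without boar replicate 1 and 0.64 without boar replicate 3 among them. The lipase LIPE had 0.13 (adjusted p = 0.65). FABP4 had -0.11 (adjusted p = 0.61) and ADIPOQ had -0.07 (adjusted p = 0.76).

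Genes that act with thrombospondins were described from 5 lists with 100 symbols, of which 53 had a probe set and 45 were tested by the gene's brightest one. Over these 45 the median difference was 0.00, against -0.01 over all 5356 genes tested, and 48.9% lay above 0, against 48.5% of all. By limma 0 of the 45 were called higher and 0 lower, where 1.51% of all genes tested were called in either direction. At an unadjusted p under 0.05 there were 10 of 45, or 22.2%, where all genes had 13.7%. With the replicate block 2 were called, TNC and FBLN1, where 3.1% of all genes were. Beside each gene said below not to overlap between the groups stand 18.1% of all tested probe sets, which did not in either direction.

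Receptors showed 0 calls among 11 tested genes, with a median difference of -0.02, 2 of the 11 above 0 and 2 with an unadjusted p under 0.05 (limma). Of the 19 symbols on this list 13 had a probe set. CD36, named above as a receptor of THBS1 and THBS2, and LRP1, another listed receptor, were not among them. ITGAV, the integrin alpha chain that binds the RGD sequence of thrombospondins, was at 1902, 1586 and 1809 in barrow pools against 2292, 2392 and 2260.1 in boar pools. The groups did not overlap, and the difference was -0.39 (limma 95% interval -0.58 to -0.20, adjusted p = 0.069). SDC1, a heparan sulfate proteoglycan of the cell surface, was at 195, 189 and 220 in barrows against 129.8, 122 and 121 in boars. It did not overlap either and had 0.63 (95% interval 0.29 to 0.96, adjusted p = 0.091). ITGB5, a beta chain that pairs with ITGAV, had -0.21 (adjusted p = 0.51).

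Matrix partners showed 0 calls among 9 tested genes, with a median of 0.04, 7 of 9 above 0 and 2 with an unadjusted p under 0.05 (limma). COL5A1, a fibril-nucleating collagen chain, was at 2882, 2381 and 3061 in barrow pools against 2181, 2130 and 2297 in boar pools (difference 0.32, adjusted p = 0.18), with 0.57 and 0.19 in its other tested probe sets. BGN, the small proteoglycan biglycan, was at 1858, 1062 and 1686 in barrows against 1251, 1069 and 1035 in boars (0.42, adjusted p = 0.38). Barrow pool 2 had the only BGN barrow signal within the boar range, and without that pool the differences of BGN and COL5A1 were 0.66 and 0.43 (adjusted p = 0.012 and 0.020). Over all alternatives their limma adjusted p reached 0.70 and 0.50 in the same order.

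Proteases and their inhibitors showed 0 calls among 7 tested genes, with a median of -0.13, 3 of 7 above 0 and 2 with an unadjusted p under 0.05 (limma). MMP14, a membrane-anchored collagenase, was at 347, 289.8 and 316 in barrow pools against 481, 399.8 and 427 in boar pools (difference -0.44, 95% interval -0.71 to -0.16, adjusted p = 0.15). MMP2, a gelatinase that THBS2 helps to clear in mice, had -0.17 (adjusted p = 0.60). TIMP2, an inhibitor of both, was at 3568, 3413 and 3837 in barrows against 3143, 2944 and 3034 in boars (0.24, adjusted p = 0.18). Signals of MMP14 and TIMP2 did not overlap between the groups, and those of MMP2 did.

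The TGF-beta axis showed 0 calls among 10 tested genes, with a median of 0.08, 6 of 10 above 0 and 1 with an unadjusted p under 0.05 (limma). That gene was ENG, a TGF-beta co-receptor of endothelium, at 564, 464 and 502 in barrow pools against 650.0, 605 and 620.4 in boar pools (difference -0.29, adjusted p = 0.30). BMP1, the protease that trims procollagen, had 0.22 (adjusted p = 0.42), and the receptor TGFBR1 had -0.16 (adjusted p = 0.53).

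Other matricellular proteins, which like thrombospondins sit in the matrix and act on cells, showed 0 calls among 8 tested genes, with a median of -0.01, 4 of 8 above 0 and 3 with an unadjusted p under 0.05 (limma). Tenascin C, TNC, a matrix protein of tendon and of wound repair, was at 286, 184 and 209 in barrow pools against 143.8, 94.4 and 129.8 in boar pools. All barrow pools were above all boar pools, and the difference of 0.80 (95% interval 0.35 to 1.26) had an adjusted p of 0.11, or 0.040 under the replicate block. The fibulin FBLN1, an elastic fibre and basement membrane protein, was at 931, 728 and 884 in barrows against 602, 599.6 and 574 in boars, also without overlap, and its difference of 0.50 (0.25 to 0.75) had an adjusted p of 0.069, or 0.047 under the block. Over all alternatives the limma adjusted p reached 0.34 for TNC and 0.27 for FBLN1. SPARCL1, a relative of SPARC, had 0.23 (adjusted p = 0.30).

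**Figure D4:**
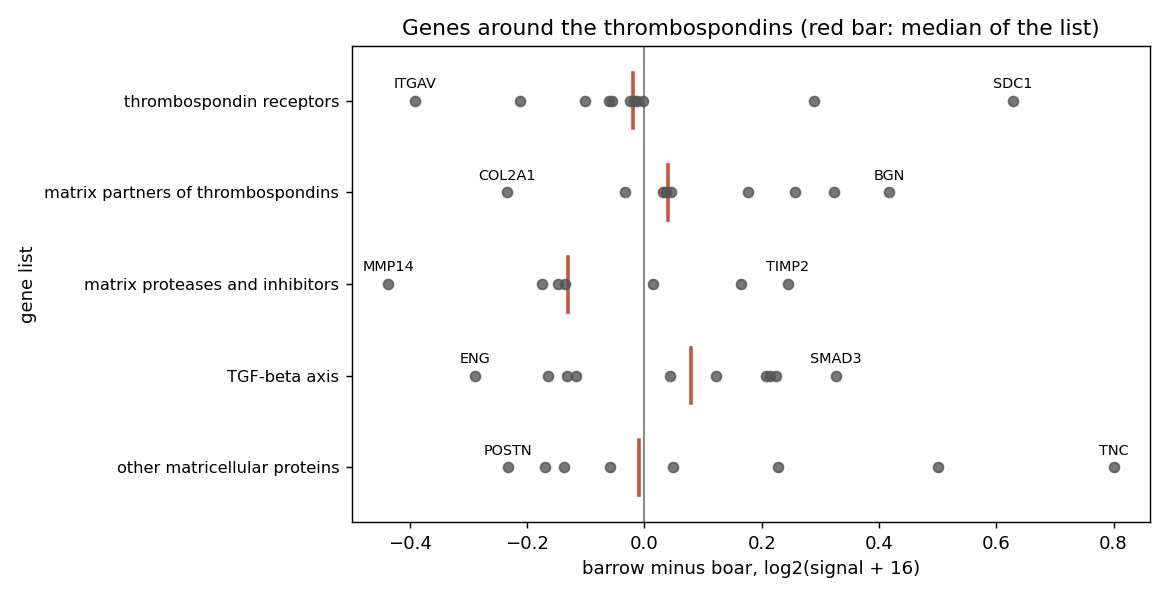
Barrow minus boar difference on the log2(signal + 16) scale for each tested gene of the 5 lists of genes around the thrombospondins, with a red bar at each list's median and the lowest and highest gene of each list named. The medians lie from -0.13 to 0.08, and the span reaches from MMP14 at -0.44 to TNC at 0.80.

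The genes whose signal ran most like COMP and THBS2 over the 6 pools were found by the root mean square difference between their log2 signals, each centred on its own mean. The measure includes the barrow and boar difference that chose both genes, so the genes it finds share that difference by construction. Nearest to COMP were PTGDS, the prostaglandin D2 synthase, at 0.27, the small GTPase DIRAS3 at 0.33, the mitochondrial nucleotide carrier SLC25A33 at 0.33, and the interferon-induced ISG15 and RSAD2 at 0.33 and 0.34. PTGDS was at 1453, 1068 and 1439 in barrow pools against 704, 750.3 and 560.1 in boar pools. As with COMP, its lowest pool was boar pool 3 and its lowest barrow pool was pool 2. The highest pools differed, with PTGDS highest in barrow pool 1 and boar pool 2 and COMP in barrow pool 3 and boar pool 1.

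The distances of the 5 genes nearest to THBS2 were smaller, on a measure that is not scaled for the narrower swing of THBS2 between pools. They were MCCC2, of leucine breakdown, at 0.036, the antioxidant enzyme PRDX6 at 0.038, the lysosomal cholesterol exporter NPC1 at 0.047, PGD of the pentose phosphate pathway at 0.056 and the folate enzyme ALDH1L1 at 0.057. PRDX6 was at 7713, 8951 and 7749.9 in barrow pools against 5453, 6318 and 5485 in boar pools. In both groups PRDX6 was highest in pool 2, as THBS2 was, and its difference was 0.50. MCCC2 was at 3215, 3729.9 and 3298 in barrows against 2317, 2658 and 2347 in boars, with the same highest pools and a difference of 0.48.

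The 5 genes nearest to COMP rested on single pools, since 1 of them was still among the 5 without boar replicate 3, and 3 of them without barrow replicate 3 and without boar replicate 2. Of the 5 nearest to THBS2, 2 were still among the 5 without boar replicate 3, and 3 without barrow replicate 2 and without boar replicate 1.

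**Figure D5:**
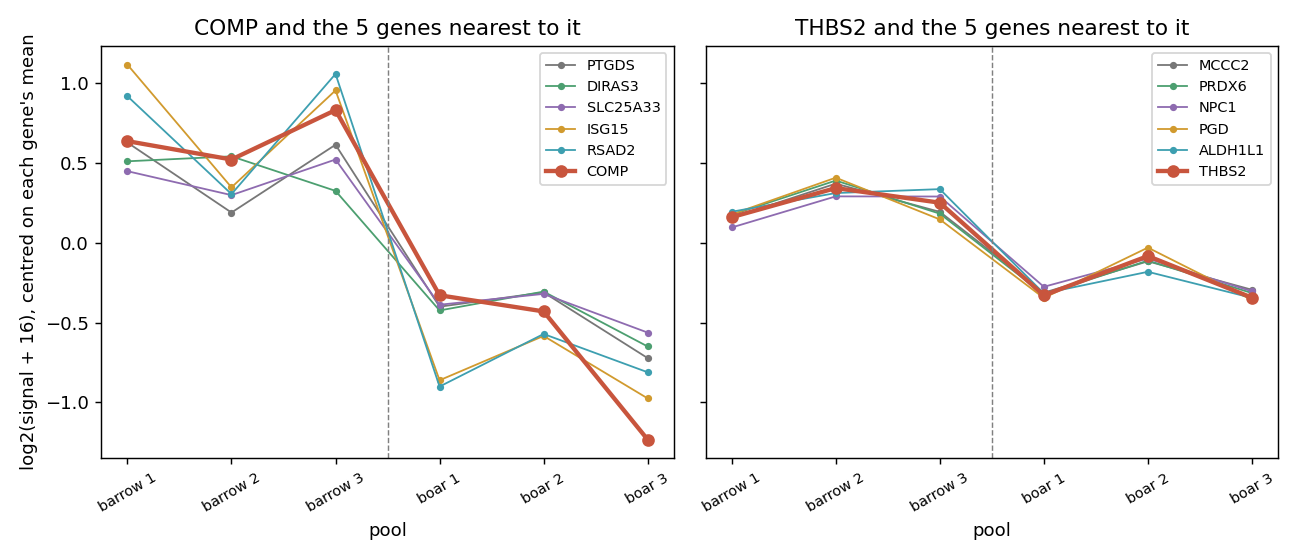
Log2(signal + 16) centred on each gene's mean over the 6 pools, for COMP (left, thick line) and THBS2 (right, thick line) with the 5 genes nearest to each, barrow pools left of boar pools. COMP drops furthest in boar pool 3, while THBS2, MCCC2, PRDX6, NPC1 and PGD are highest in pool 2 of both groups.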

How the data were processed

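The authors deposited 1 signal intensity per probe set and array, made with MAS5 per the submitters' processing notes. Its version and settings were not given in the sources used here. Detection calls were not used here. The 2% trimmed mean was 500.09 to 500.1 on every array, as a global scaling leaves it. Of 24123 probe sets 124 controls were left out. Symbols came from the platform annotation (10099 probe sets with 1 symbol, 198 with several, 13826 with none), and all 11 thrombospondin symbols were found again in RefSeq. No genome build is named, so no coordinates are given, and no sequence is shown.

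Signals were kept at the authors' scaling and compared as log2(signal + 16) with limma 3.58.1 in R 4.3.3 (intensity trend, 2-sided, Benjamini-Hochberg over 14399 probe sets), after a test on simulated data. The number of arrays limits the precision. A gene on a list was represented by its brightest probe set. Named were all members of the family, per list the called genes and the 3 smallest unadjusted p, 5 genes nearest to COMP and to THBS2, and ADIPOQ, FABP4 and LEP; ACAN, SOX9, HAPLN1, COL11A1, CKM and PPBP were added after their values were seen. Members and lists were chosen with earlier results of these data known.

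Deviations from the group means correlated at 0.12, 0.17 and 0.26 between same-numbered barrow and boar pools, all above the minimum of 0.1. Pools were therefore taken as paired by number for the differences between same-numbered pools and for the replicate block. The main fit held no block, so its intervals and adjusted p take no account of a pairing. Other combinations had -0.19 to -0.01. Centring on group means pushes these below 0 when same-numbered pools lie above it, so they are no separate check. The labels do not say what a number shares. Alternatives were 2 pseudocounts, 2 filters, quantile normalization, no intensity trend, array weights, the replicate block and each array left out.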

Additional observations from a re-analysis of the deposited data

How the results depend on the processing

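COMP kept a difference above 0 in all 13 alternatives that tested it and its call in 7, and THBS2 in all 14 and its call in 8. Without a filter and without the intensity trend COMP had 1.33 and THBS2 0.50, and neither was called. With single pools left out COMP had 1.04 to 1.49 and THBS2 0.46 to 0.59. Of the 2 thrombospondin probe sets called, 0 were called without a filter and without the trend, 1 in the upper 40% by mean, where COMP was not tested, and 0 to 2 with a pool left out. With the replicate block both remained called. Ssc.10406.1.A1_at of THBS1 turned to 0.02 with array weights and without barrow replicate 2, and ran from -0.10 to 0.05 with a pool left out, and Ssc.11559.2.A1_at of THBS3 turned to -0.06 without barrow replicate 1 and ran from there to 0.36. GP9 turned to 0.04 with array weights and ran from -0.27 to 0.08 with a pool left out. The cause was not tested.

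Of all probe sets 167 were called (101 higher, 66 lower), against 96 (61 and 35) without a filter, 32 (20 and 12) without the trend, 425 (233 and 192) with array weights and 338 (215 and 123) with the replicate block. With a pool left out the count was 52 without barrow replicate 1, 290 without barrow replicate 2, 65 without barrow replicate 3, 27 without boar replicate 1 and 31 without boar replicate 3, with 19 to 159 higher and 8 to 131 lower. Genes called on the 5 lists numbered 5 with array weights (TNC, FBLN1, SDC1, COL5A1 and ITGAV), 2 with the replicate block and 0 to 3 with a pool left out. Of the 5 genes nearest to COMP 2 were still among the 5 with pseudocount 64, 1 without a filter, 3 with quantile normalization and 1 to 5 with a pool left out, and of those nearest to THBS2 2 to 5 with a pool left out. Signals near the array's floor, as for COMP in boars, limit the size that can be given for its difference.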
